A study of Mus musculus with 15 samples.

Results

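The immunity-related GTPases (IRGs) are a family of interferon-inducible GTP-binding proteins. The 7 genes described here, Irgm1, Irgm2, Igtp (Irgm3), Iigp1 (Irga6), Tgtp1 and Tgtp2 (Irgb6) and Ifi47 (Irgd), were chosen by symbol among 25700 gene identifiers, and all 7 passed the filter on low counts. Tgtp1 passed it only through the IFN-γ libraries. They were followed through 5 groups of mouse bone marrow derived macrophages with 3 RNA-seq libraries each. Marrow from mice aged 8 to 10 weeks was cultured in RPMI with FCS and M-CSF at 10 ng/ml for 7 days in every group. The controls received nothing further. Of the treated groups, 2 received heme-albumin, which is hemin bound to human serum albumin, at 200 µM or 400 µM to make cells that resemble macrophages after uptake of red blood cells. The other two received IL-4 at 10 ng/ml (named M2) or IFN-γ at 10 ng/ml (named M1). In replicates 2 and 3 of the higher heme-albumin dose the treatment tag gives a slightly different concentration from the title, and the dose of the title, 400 µM, was used. The mouse strain, the time under treatment and a control with albumin alone are not given in the sources used here.

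IRG proteins act on the membranes of vacuoles that hold intracellular parasites and bacteria. Members of the GKS class, named for a lysine in the first loop that binds the nucleotide, load onto such vacuoles and help to break them. Members of the GMS class, also called IRGM proteins, have a methionine at that place, sit on the cell's own membranes and hold the GKS proteins in the inactive state. In macrophages, IFN-γ acts through transcription factors that bind the promoter elements known as GAS and ISRE, IRF1 among them, and IRG genes are among its classical targets.

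The class residue can be read in the coding sequence. The loop codons are printed because they separate the 7 genes into the classes by which the values are ordered below, with the codon of the class residue in capitals. They were read from the GENCODE M21 transcripts on GRCm38, and each lies within 1 coding exon on chromosome 11. Irgm1, Irgm2 and Igtp hold the same 24 bases, with the methionine at residue 89 of Irgm1 and Irgm2 and residue 97 of Igtp. Tgtp1 and Tgtp2 share another version, with the lysine at residue 69. In Ifi47 the lysine is residue 87.
Irgm1 (minus strand, chr11:48866761-48866784): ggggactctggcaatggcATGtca
Irgm2 (plus strand, chr11:58219695-58219718): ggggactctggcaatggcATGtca
Igtp (plus strand, chr11:58206275-58206298): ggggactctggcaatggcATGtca
Tgtp1 (minus strand, chr11:48987667-48987690): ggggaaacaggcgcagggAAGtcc
Tgtp2 (minus strand, chr11:49059534-49059557): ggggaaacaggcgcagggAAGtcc
Ifi47 (plus strand, chr11:49095648-49095671): gggcagtctgggactggcAAGtcc
Iigp1 has its lysine at residue 82. Over the whole protein, Irgm1, Irgm2 and Igtp were 46.3 to 49.2% identical to each other. Iigp1, Ifi47 and the Tgtp pair were 39.1 to 42.7% identical among themselves, and pairs from different classes were 26.2 to 30% identical. The annotated proteins of Tgtp1 and Tgtp2 were 100.0% identical.

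The promoters differed within the classes. RefSeq windows on GRCm38.p6, from 250 bases before to 50 bases after the start, were found for the 6 members on chromosome 11 and not for Iigp1. They were searched on both strands for GAS as TTCNNNGAA and for ISRE as GAAANNGAAA. Of 32851 mouse windows of the same length, 8.30% held a GAS match, 3.44% an ISRE match and 0.45% both. Irgm2, Igtp, Tgtp1 and Tgtp2 each held 1 of both, in the same order and 2 bases apart. That arrangement, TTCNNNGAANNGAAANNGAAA, was searched for after it had been seen in these sequences. It occurred in 5 of the 32851 windows, those 4 genes and the related Gm12185, and so crossed the class border. The stretches before the start are shown with the matches in capitals.
Irgm2 (plus strand, chr11:58214857-58214976): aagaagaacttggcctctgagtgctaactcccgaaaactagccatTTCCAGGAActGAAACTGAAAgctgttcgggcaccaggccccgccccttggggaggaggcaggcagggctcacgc
Igtp (plus strand, chr11:58199436-58199555): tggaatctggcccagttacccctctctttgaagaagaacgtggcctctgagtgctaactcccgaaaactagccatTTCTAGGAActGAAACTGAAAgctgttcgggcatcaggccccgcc
Tgtp1 (minus strand, chr11:48992259-48992366): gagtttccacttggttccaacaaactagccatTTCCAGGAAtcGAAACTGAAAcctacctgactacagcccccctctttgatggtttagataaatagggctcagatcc
Tgtp2 (minus strand, chr11:49064213-49064332): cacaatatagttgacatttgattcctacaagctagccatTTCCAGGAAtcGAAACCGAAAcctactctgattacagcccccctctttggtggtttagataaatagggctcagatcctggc
Irgm1 (minus strand, chr11:48871428-48871457): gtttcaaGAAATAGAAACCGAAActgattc
Irgm1 held 2 overlapping ISRE matches, starting 30 and 24 bases before the RefSeq start, and no GAS match. In GENCODE M21 the genes Irgm1, Irgm2 and Tgtp1 begin farther upstream than these RefSeq starts. Of the 120 bases before the RefSeq start, 120 lie in a GENCODE exon for Irgm1, 12 for Tgtp1 and 0 for Irgm2. All distances given here depend on the choice of the RefSeq start. In Ifi47 neither pattern was in the window. These are matches of letters and were not tested as binding sites.

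**Figure D1:**
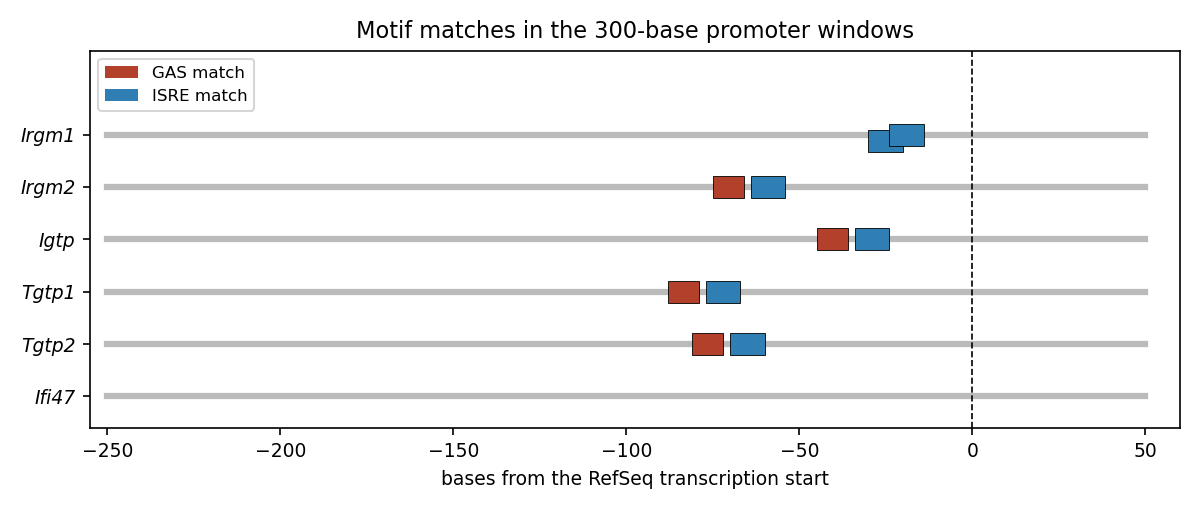
Matches to the GAS (red) and ISRE (blue) letters in the 300-base RefSeq promoter windows of 6 members, plotted by distance in bases from the start (dashed line). In Irgm2, Igtp, Tgtp1 and Tgtp2 the GAS match begins 75, 45, 88 and 81 bases before the start with the ISRE match just behind it, while the window of Ifi47 has neither.

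The positions set what the counts can resolve. Irgm1 (ENSMUSG00000046879, chr11:48861968-48871683), Tgtp1 (ENSMUSG00000078922, chr11:48985327-48994172), Tgtp2 (ENSMUSG00000078921, chr11:49057194-49064206) and Ifi47 (ENSMUSG00000078920, chr11:49076587-49096974) form 1 cluster with gaps of 113.6, 63.0 and 12.4 kb. Igtp (ENSMUSG00000078853, chr11:58199556-58207591) and Irgm2 (ENSMUSG00000069874, chr11:58199618-58222782) overlap on the same strand and share 162 exonic bases, which is 8.0% of Igtp and 4.4% of Irgm2. Iigp1 (ENSMUSG00000054072) lies on chromosome 18, apart from the rest. In Tgtp1, 73.1% of all 100-base words of its transcripts recur in transcripts of another gene, and in Tgtp2 76.8% do. For the other 5 genes that share was 5.2% or lower, and it was 0.0% for Irgm1 and Iigp1. The shares depend on word length. With 50-base words they were 81.2% for Tgtp1, 86.6% for Tgtp2, 11.8% for Igtp and 7.8% for Irgm2. Ifi47 had 4.8%, Iigp1 1.7% and Irgm1 0.4%. How the authors' counting treated reads that match both Tgtp copies is not given in the sources used here. For that reason the split between Tgtp1 and Tgtp2 is uncertain, and their sum is given beside them. If such reads were left out, both levels and the sum are too low.

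Total counts ran from 8427352 to 28587416 per library. Levels are CPM, counts scaled to the size of the library after TMM correction, and changes are log2 fold changes ± SE. "Rose" and "fell" are used for genes with an adjusted p under 0.05 in edgeR's quasi-likelihood test, with Benjamini-Hochberg adjustment over the 11883 genes tested. Where a group had no counts the fold is a bound set at 3 counts over the group. This bound takes the counts of the other group as exact. Where a group had 1 to 3 counts the ratio has a 95% exact interval of counting error. Neither covers the spread among libraries. Genes with at most 3 counts in both groups have neither, and medians at the bounds leave them out. The 4 comparisons with control share the same 3 control libraries. The labels do not tie the libraries of a group to separate animals; p-values therefore reflect the spread among these libraries, which may be technical. In bulk RNA, fewer cells of a type and less RNA per cell cannot be told apart. Replicate 2 at 400 µM and replicate 3 with IFN-γ stood apart from the other libraries of their groups, with chi-square values per degree of freedom of 49.7 to 62.9 and 135 to 138 against 10.9 and 46.4 for the remaining pairs. Replicate 2 at 200 µM did so to a lesser degree, at 22.9 and 36.6 against 8.59. The 8 macrophage markers had counts in every group, and their summed level was 33100 to 38800 CPM in controls, 46700 to 55500 at 200 µM, 41900 to 52000 at 400 µM, 14300 to 20400 with IL-4 and 12900 to 26400 with IFN-γ, most of it Lyz2. Fcgr1, a macrophage marker on that list, was lower than in controls in every heme-albumin and IL-4 library and higher in every IFN-γ library, with 111 to 190 CPM in controls, 55.3 to 89.4 at 200 µM, 45.2 to 75.2 at 400 µM, 6.67 to 9.22 with IL-4 and 645 to 828 with IFN-γ. Adgre1 had 1300 to 1440 CPM in controls, 952 to 1280 at 200 µM, 991 to 1270 at 400 µM and 862 to 1180 with IL-4. Cd68 had 1540 to 1660 CPM in controls, 1310 to 1380 at 200 µM and 1200 to 1300 at 400 µM. With IL-4 Cd68 had 1830 to 2310 CPM and with IFN-γ 864 to 1300. Cd14 had 346 to 605 CPM in controls, 308 to 432 at 200 µM and 261 to 288 at 400 µM. With IL-4 Cd14 had 39.4 to 88.9 CPM and with IFN-γ 42.6 to 314. Csf1r was higher at 200 µM, at 1840 to 1950 against 1390 to 1710 CPM. Lyz2 was higher with heme-albumin, at 40600 to 49000 CPM at 200 µM and 36300 to 46100 at 400 µM against 26900 to 31700. Itgam overlapped its controls in every group. Mertk, like Fcgr1, was higher with IFN-γ, at 146 to 448 against 43.6 to 69.9 CPM. At 400 µM Mertk was lower, at 11.9 to 37.2 CPM. All 7 neutrophil markers had counts in every group, Ly6g only 1 to 3. Their summed level was 4.36 to 28 CPM in controls, 10.7 to 34.8 at 200 µM, 17.3 to 54.9 at 400 µM, 1.91 to 41.6 with IL-4 and 2.45 to 45 with IFN-γ. Among them S100a8 had 1.4 to 6.72 CPM in controls, 6.37 to 31.5 at 200 µM and 13.6 to 51.9 at 400 µM, and Mpo had 7, 44 and 64 counts in these groups. Elane likewise had 1, 9 and 12 counts in controls, at 200 µM and at 400 µM. Ngp went the other way with 158, 72 and 59 counts, as did S100a9 with 247, 103 and 155 and Camp with 12, 7 and 5. These counts are not scaled for depth. The part of these markers in the results was not tested. Ifng, the gene of IFN-γ itself, had 0 counts in all 15 libraries, and the 10 T and NK cell markers summed to at most 0.605 CPM.

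In untreated macrophages the IRG genes stood at very different levels. Per kilobase of exon, the scale on which genes can be compared, Ifi47 was at 24.7 ± 5.77 CPM (SD, n = 3), Irgm1 at 18.1 ± 3.64, Igtp at 15.96 ± 3.04 and Irgm2 at 12.8 ± 2.28. The SDs of neighbours in that order overlap. Well below them came Tgtp2 at 1.66 ± 0.776, Iigp1 at 0.423 ± 0.0690 and Tgtp1 at 0.0483 ± 0.0163. The levels of Tgtp1 and Tgtp2 may lack reads that match both copies. The 3 regulatory IRGM genes and Ifi47 were thus already transcribed without an added stimulus. The other GKS genes were lower, with 215 counts over the 3 control libraries for Tgtp2, 105 for Iigp1 and 6 for Tgtp1. The highest and lowest level were 511-fold apart, a span that rests on the 6 counts and the uncertain split of Tgtp1; without Tgtp1 it was 58.4-fold, from Ifi47 to Iigp1. All 7 together took 0.0246 to 0.0339% of the counts of a control library.

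IFN-γ raised every IRG gene, and raised most those that had been lowest. All 7 rose and 0 fell, against 24.1% of all tested genes that rose and 19.5% that fell. Tgtp1, with 6 counts over the controls, passed the low-count filter only through the IFN-γ libraries. Its rise follows from how it entered the test and adds no support. The median change of the 7 was 4.76 against 0.051 over all tested genes. Their share of all counts reached 0.548 to 0.621% of a library.

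Among the regulatory genes, Irgm1, which guards the cell's own membranes including the Golgi, had 89.2, 129 and 96.5 CPM in controls 1 to 3 and 1186, 1197 and 1448 CPM with IFN-γ. The change was 3.60 ± 0.20 (adjusted p = 1.82e-08). Control 2 was the highest control, a feature that recurs in all members but Tgtp1, and no IFN-γ library came near it. Irgm2, another Golgi-associated regulator, went from 43.1, 56.8 and 41.4 CPM to 468, 533 and 745 CPM, a change of 3.63 ± 0.22 (adjusted p = 3.53e-08). Igtp, the regulator found on the endoplasmic reticulum and lipid droplets, went from 29.8, 39.3 and 27.7 CPM to 689, 826 and 1115 CPM. It changed by 4.76 ± 0.22 (adjusted p = 4.31e-09). In both genes IFN-γ replicate 3, the library that stands apart, was the highest, and the control and IFN-γ libraries were far from overlapping.

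Among the effector genes, Iigp1, whose product oligomerizes on the vacuole of Toxoplasma, had 2.50, 2.84 and 2.04 CPM in controls and 1711, 1456 and 1834 CPM with IFN-γ. The control values rest on 39, 47 and 19 counts. The change of 9.38 ± 0.35 (adjusted p = 7.41e-10) took Iigp1 from the 6th to the 2nd place per kilobase. Tgtp2, a gene for Irgb6, which is among the first IRG proteins on that vacuole, had 4.03, 7.44 and 3.12 CPM in controls and 424, 491 and 519 CPM with IFN-γ, a change of 6.58 ± 0.28 (adjusted p = 1.43e-09). Tgtp1 had 2 counts in each control library and 4637, 8226 and 8644 counts with IFN-γ, which is 272, 366 and 595 CPM. Its fitted change was 11.39 ± 0.47 (adjusted p = 9.59e-08). With the Tgtp1 and Tgtp2 counts summed, the change was 7.43. Ifi47, the GKS gene with no GAS or ISRE letters in its window, had 54.3, 77.4 and 51.4 CPM in controls and 619, 672 and 750 CPM with IFN-γ. It changed by 3.48 ± 0.16 (adjusted p = 3.91e-09), the smallest rise of the 7 and next to those of Irgm1 and Irgm2.

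The unequal rises brought the family to a narrow band. Per kilobase of exon, Igtp stood highest with IFN-γ at 434 ± 107 CPM, followed by Iigp1 at 286 ± 33.2, Ifi47 at 275 ± 26.8 and Irgm1 at 220 ± 25.6. Tgtp2 was at 163 ± 16.7, Irgm2 at 158 ± 39.3 and Tgtp1 at 128 ± 51.9. The places of Tgtp1 and Tgtp2 in this order, and with them the spans, would change if reads that match both copies were left out. The highest and lowest level were 3.38-fold apart, or 2.75-fold without Tgtp1, and only the step from Ifi47 to Irgm1, that from Irgm1 to Tgtp2 and that from Igtp to Iigp1 exceeded the sum of both neighbours' SDs.

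**Figure D2:**
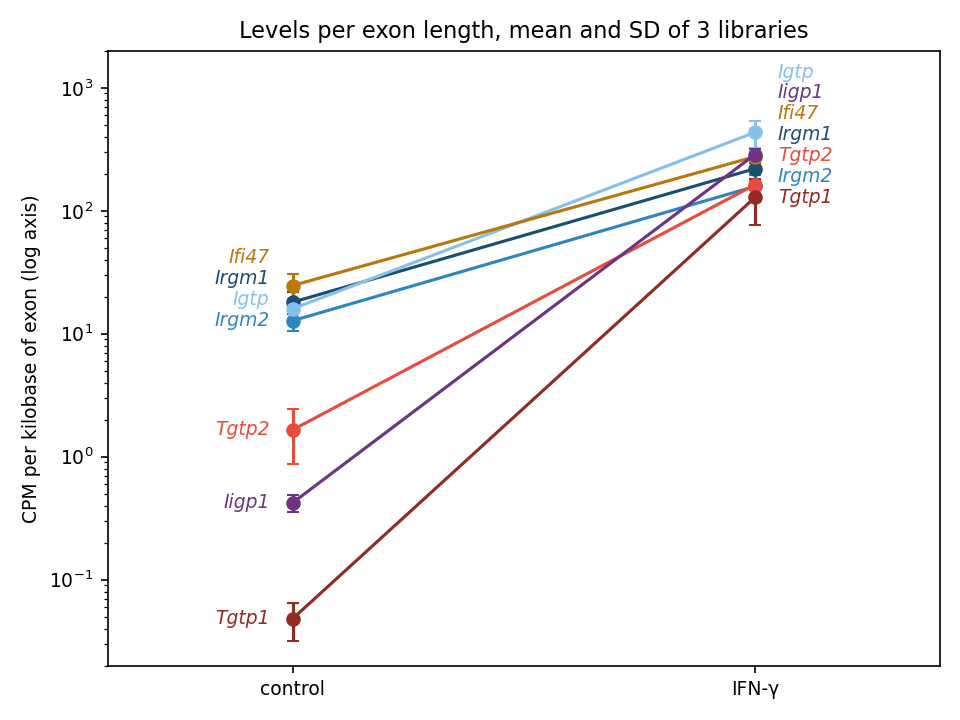
Level of each IRG gene per kilobase of exon (CPM, log axis) in control and IFN-γ libraries; points are means and bars SDs of 3 libraries. The 7 genes span 511-fold in controls, where Tgtp1 has 6 counts, and 3.38-fold with IFN-γ (58.4-fold and 2.75-fold without Tgtp1), and the steepest lines are those of Tgtp1, Iigp1 and Tgtp2.

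Heme-albumin at 400 µM lowered the transcripts of both classes. Of the 7 genes, 0 rose and 6 fell, against 14.7% of all tested genes that rose and 10.8% that fell. The median of the 7 was -1.23, or -0.98 with low-count genes at their bounds, against 0.008 over all tested genes. Of the 6 that fell, Iigp1 and Tgtp2, already low in controls, had the largest changes.

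Irgm1 had 44.1, 76.0 and 51.7 CPM at 400 µM, each below the lowest control of 89.2 CPM, and its change was -0.88 ± 0.18 (adjusted p = 0.00357). Irgm2 had 19.5, 30.3 and 21.9 CPM, all below the 41.4 CPM of control 3, and changed by -0.98 ± 0.21 (adjusted p = 0.00337). Replicate 2, which stood apart, was the highest of the 3 in both. Igtp had 18.2, 24.8 and 18.2 CPM, with replicate 2 again the highest and near the 27.7 CPM of control 3. Its change was -0.67 ± 0.20 (adjusted p = 0.0267), the smallest of the 6 falls. Igtp no longer passed without control 2, where it changed by -0.51 (adjusted p = 0.119), without 400 µM replicate 1 (-0.60, adjusted p = 0.0794) or without replicate 3 (-0.59, adjusted p = 0.0936).

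Ifi47 had 26.6, 23.5 and 28.1 CPM at 400 µM, close together and below every control, and changed by -1.23 ± 0.15 (adjusted p = 7.56e-05). Tgtp2 had 5, 8 and 11 counts, or 0.548, 0.959 and 0.865 CPM. Its change was -2.64 ± 0.36 (adjusted p = 0.000157). Iigp1 had 1 count, in replicate 2, over the whole group, against 105 in the controls. It was 76.4-fold lower (95% counting interval 13.4 to 3050, adjusted p = 0.00012). Tgtp1 had 0 counts in all 3 libraries, which against 2 counts in each control makes it 1.46-fold lower at the bound. The error of the control counts is not in that bound, so it is not a lower limit. It did not pass the test (adjusted p = 0.193), and at so few counts a larger change was not detectable. With the replicate number as a block, Tgtp1 did pass (adjusted p = 0.0361), on the same few counts. With Tgtp1 and Tgtp2 summed the pair, in controls mostly Tgtp2, fell by 2.68 on the log2 scale (adjusted p = 0.000273).

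The lower dose gave the same 6 calls. At 200 µM, 0 of the 7 genes rose and 6 fell, against 14.0% and 9.48% of all tested genes, with a median of -1.41 (-1.31 at the bounds) against 0.024. Irgm1 had 36.3, 41.0 and 41.1 CPM, tighter than at 400 µM and well below the controls, and changed by -1.41 ± 0.19 (adjusted p = 0.000135). Irgm2 had 18.8, 17.8 and 21.2 CPM and changed by -1.29 ± 0.21 (adjusted p = 0.000604). In both regulators every library was below the lowest control. Igtp had 18.8, 17.8 and 17.2 CPM and changed by -0.85 ± 0.20 (adjusted p = 0.00783), again the smallest of the 6. Without replicate 2 the same 6 genes fell, Igtp by 0.85 (adjusted p = 0.0329).

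Among the effectors at 200 µM, Ifi47 had 23.0, 25.7 and 25.2 CPM and changed by -1.31 ± 0.15 (adjusted p = 4.78e-05). Tgtp2 had 12, 7 and 9 counts, or 0.859, 0.592 and 0.955 CPM, and changed by -2.64 ± 0.35 (adjusted p = 0.000133). Its highest library stood below the lowest control, at 3.12 CPM. Iigp1 had 0, 1 and 3 counts and changed by -4.35 ± 0.60 (adjusted p = 0.000187). Most of what was left of it came from replicate 3. Without that library the fitted change was -5.74, which rests on 1 count at 200 µM and has no counting interval. Tgtp1 had 0 counts in all 3 libraries, 1.70-fold lower at the bound, and missed the threshold (adjusted p = 0.175). It passed with the replicate block (adjusted p = 0.035), on the same few counts, and the summed pair changed by -2.68 (adjusted p = 0.000231).

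A difference between the heme-albumin doses was not shown for any IRG gene. None of the 7 passed in either direction, and neither did any other gene (0% of those tested, by edgeR). An unadjusted p under 0.05 was reached by 1796 genes, and DESeq2 called 2 genes higher and 9 lower. The 95% interval of 400 against 200 µM was -0.25 to 0.42 for Ifi47, -0.26 to 0.63 for Igtp, -0.14 to 0.76 for Irgm2 and -1.06 to 1.05 for Tgtp2. For Irgm1 the difference was 0.54 (0.14 to 0.94, adjusted p = 0.297), with all 3 libraries of the higher dose above those of the lower one; without replicate 2 at 400 µM it was 0.28. Iigp1 had 1 count at the higher and 4 at the lower dose, and Tgtp1 had none at either. Within the 3 dates carried by the column names, 400 µM was above 200 µM by 0.28 to 0.89 for Irgm1 and by 0.04 to 0.77 for Irgm2. With the replicate block among only the 6 libraries of both doses, edgeR called 147 genes higher and 97 lower at 400 µM, none of them among the 7, and Irgm1 was at 0.51 (adjusted p = 0.0771).

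IL-4 lowered the same genes, and Ifi47 further than heme-albumin did. Against control, 0 of the 7 rose and 6 fell, beside 14.9% and 12.0% of all tested genes, with a median of -2.05 against 0. Irgm1 had 36.1, 37.7 and 40.6 CPM, a narrow group below every control, and changed by -1.46 ± 0.19 (adjusted p = 6.66e-05). Irgm2 had 12.3, 16.2 and 16.5 CPM and changed by -1.65 ± 0.21 (adjusted p = 5.73e-05). Igtp had 9.74, 14.1 and 13.3 CPM and changed by -1.38 ± 0.20 (adjusted p = 0.000207). In these 2 genes replicate 1 was the lowest, and all IL-4 libraries were below all controls.

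Ifi47 had 13.04, 16.7 and 14.4 CPM with IL-4 and changed by -2.05 ± 0.15 (adjusted p = 8.71e-07). Tgtp2 had 7, 17 and 17 counts, or 0.429, 0.901 and 0.591 CPM, and changed by -2.94 ± 0.32 (adjusted p = 1.86e-05). Neither overlapped the controls. Iigp1 had 0, 2 and 8 counts and changed by -3.95 ± 0.48 (adjusted p = 4.87e-05). Without replicate 3 its fitted change was -5.28, which rests on 2 counts with IL-4 and has no counting interval. Tgtp1 had 1 count in the group, in replicate 2, and was 9.26-fold lower (95% counting interval 1.12 to 426), which did not pass (adjusted p = 0.203). It passed with the replicate block (adjusted p = 0.0337), on the same few counts, and the summed pair changed by -2.95 (adjusted p = 3.75e-05).

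Set directly against 400 µM heme-albumin, IL-4 left 4 members lower and 0 higher, beside 20.5% and 19.7% of all tested genes. The difference of IL-4 from 400 µM was -0.83 ± 0.15 for Ifi47 (adjusted p = 0.000848), -0.71 ± 0.20 for Igtp (adjusted p = 0.0129), -0.66 ± 0.21 for Irgm2 (adjusted p = 0.0206) and for Irgm1 -0.58 ± 0.18 (adjusted p = 0.0218). Against 200 µM, of the 7 genes only Ifi47 was lower, at -0.74 ± 0.15 (adjusted p = 0.00208), and 0 were higher, beside 16.8% and 14.5% of all tested genes. Igtp was at -0.53 ± 0.20 against 200 µM (adjusted p = 0.0639) and passed with the replicate block (adjusted p = 0.0354). Ifi47 is thus the member whose order was resolved furthest, with IFN-γ above control, control above heme-albumin and both doses above IL-4. In the order of Irgm1, 200 µM heme-albumin (39.4 ± 2.74 CPM) and IL-4 (38.1 ± 2.30 CPM) overlapped.

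**Figure D3:**
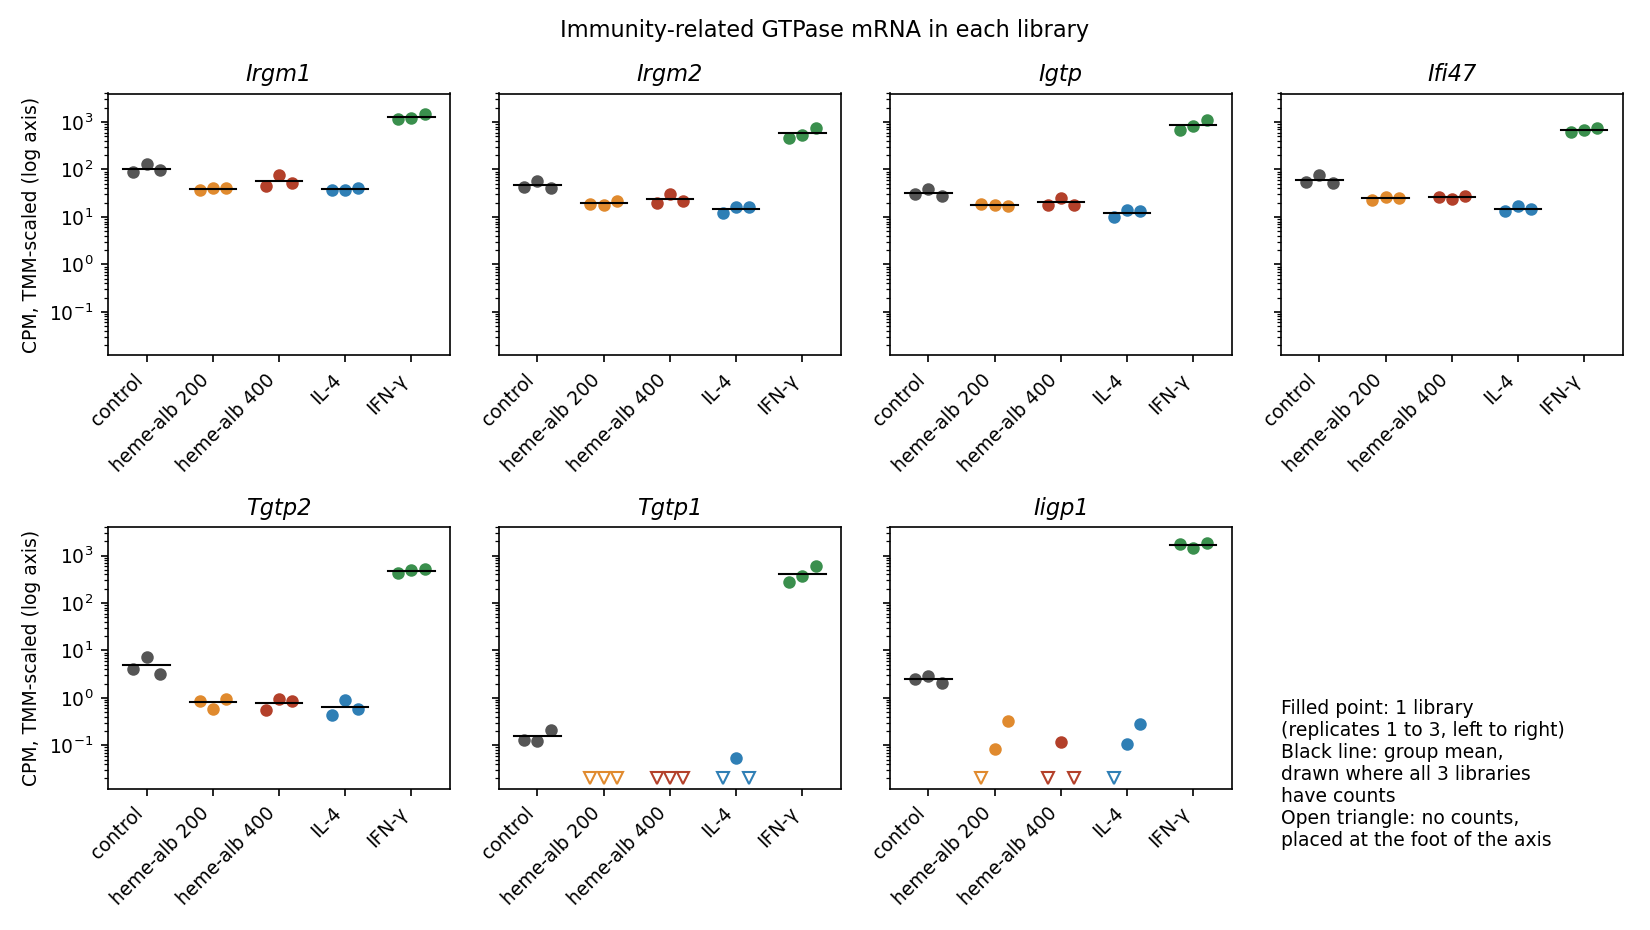
CPM (log axis) of each IRG gene in each of the 15 libraries, by group; points are libraries in the order of replicates 1 to 3, lines are group means, and open triangles mark libraries with no counts. In every panel the IFN-γ libraries are the highest and the heme-albumin and IL-4 libraries lie below the controls, and Tgtp1 has counts in 1 of those 9 libraries.

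Within the 3 dates that the column names carry, 1 for each replicate number, each of the 7 genes kept its direction in all 4 comparisons with control, for Tgtp1 on 0 to 2 counts a library outside the IFN-γ group. For Irgm1, the log2 ratios within a date were -1.01 to -0.76 at 400 µM, -1.65 to -1.23 at 200 µM, -1.77 to -1.25 with IL-4 and 3.21 to 3.91 with IFN-γ. For Igtp at 400 µM, the change that depended on single libraries, they were -0.71 to -0.60. For Ifi47 with IL-4 they were -2.21 to -1.84.

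**Figure D4:**
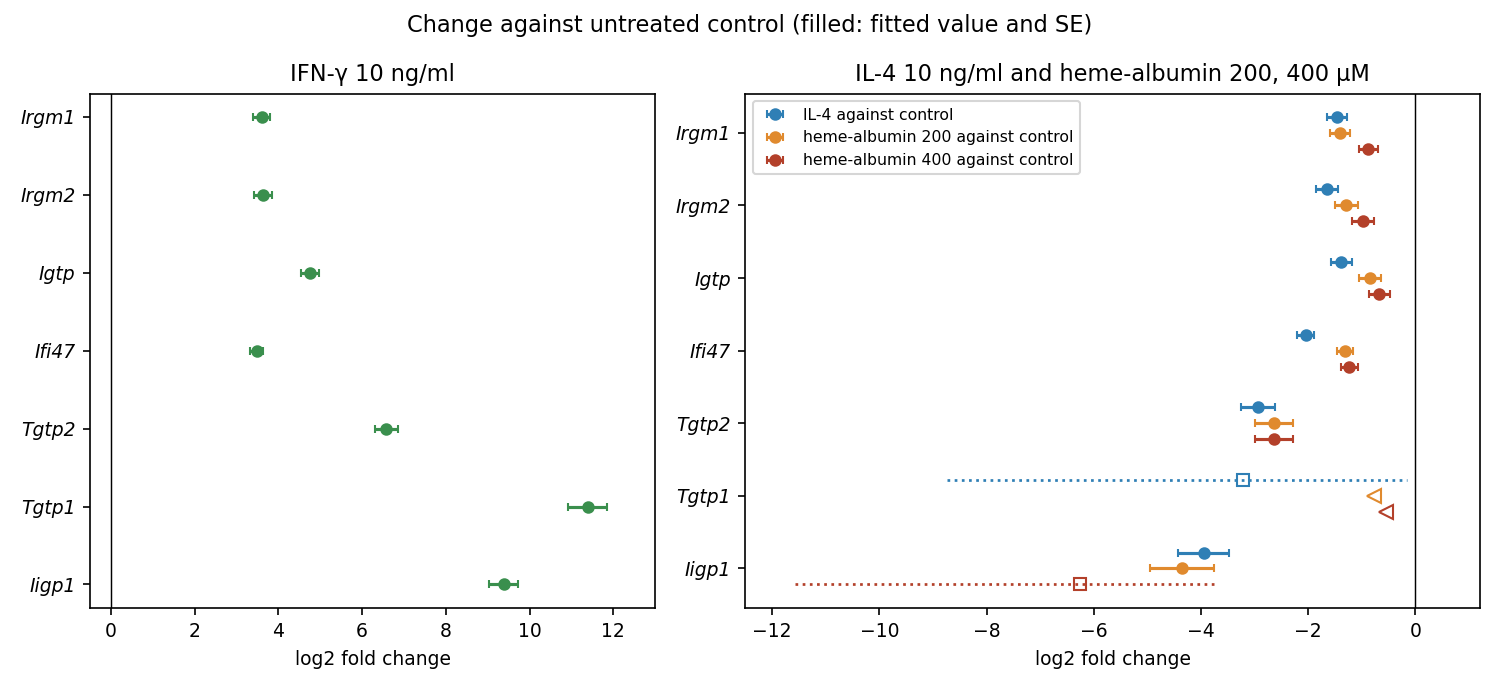
Log2 fold change of each IRG gene against control with IFN-γ (left) and with IL-4 and both heme-albumin doses (right). Filled points are fitted values with SE, open squares are ratios from 1 to 3 counts with dotted 95% counting intervals, and open triangles are bounds for groups with no counts; the rise with IFN-γ runs from 3.48 in Ifi47 to 11.39 in Tgtp1, and Iigp1 and Tgtp2 lie farther below 0 on the right than the other genes with fitted values.

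The profiles of the members over the 15 libraries were compared by the root mean square difference of their centred log2 CPM, where a small value means a similar profile. Irgm1 and Irgm2 were the closest pair, at 0.16. Ifi47 was 0.24 from Irgm2, 0.32 from Irgm1 and 0.44 from Igtp, but 1.63 from Tgtp2, 2.67 from Tgtp1 and 3.15 from Iigp1. By its profile the GKS gene Ifi47 therefore lay nearer the regulatory class than its own. Among genes outside the family, those near the mean of the regulatory class included Ifi211 at 0.32, Phf11b at 0.43, Flt4 at 0.44 and H2-Q5 at 0.44. Nearest to the mean of the GKS class were Gbp5 at 0.28, Gbp2 at 0.60, Cxcl9 at 0.62, Gbp6 at 0.67 and H2-Q6 at 0.69. These distances are descriptions, and all genes in them share libraries and depth. The log2 CPM includes a small added count, so distances of genes near the floor depend in part on it. Outside the IFN-γ group the mean levels were 0.0497 to 0.139 CPM for Flt4, 0.385 to 1.05 for H2-Q5 and 0 to 0.489 for Cxcl9.

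Less studied relatives of the family also changed. Of 10 such genes listed, 9 were tested. The medians of these and the following lists stand beside medians over all tested genes of 0.051 with IFN-γ, 0.008 at 400 µM, 0.024 at 200 µM and 0 with IL-4. The shares of all tested genes that rose and fell, against which each list is read, were 24.1% and 19.5% with IFN-γ, 14.7% and 10.8% at 400 µM, 14.0% and 9.48% at 200 µM and 14.9% and 12.0% with IL-4. With IFN-γ, 7 of the 9 relatives rose and 0 fell, with a median of 2.23 (4.20 at the bounds). Irgc1 is left out of that second value, and Gm4841 of the values at the bounds in the other comparisons. Gm4841, with 0 counts in controls, and F830016B08Rik, with 11, passed the low-count filter only through the IFN-γ libraries. The rise of both follows from how they entered the test. Gm12185, whose window holds the joined GAS and ISRE letters and which shares 223 exonic bases with Tgtp1, went from 0.987 ± 0.393 to 341 ± 21.6 CPM (8.34 ± 0.22, adjusted p = 5.55e-11). Gm4951 changed by 6.18 ± 0.30 and F830016B08Rik by 6.93 ± 0.37. At each heme-albumin dose 5 fell and 0 rose, with medians of -0.81 at 400 µM and -1.07 at 200 µM (-0.86 and -1.11 at the bounds). Among them were Gm5431 (-2.13 ± 0.22 at 400 µM and -2.46 ± 0.22 at 200 µM), Gm4951 (-4.91 ± 0.57 and -4.83 ± 0.54) and 9930111J21Rik2 (-0.90 ± 0.15 and -1.15 ± 0.15). With IL-4, 3 fell and 2 rose, with a median of -0.81 (-0.87 at the bounds). Those that fell included 9930111J21Rik2 (-1.20 ± 0.15) and Gm5431 (-1.41 ± 0.20). Irgc1, known from the testis, was among the 2 that rose, with 71 counts against 1 in the controls (46.0-fold, 95% counting interval 7.99 to 1840). Irgc1 passed the low-count filter only through the IL-4 libraries, so its rise follows from how it entered the test.

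Genes of the pathway that drives the family were measured in the same libraries. Of 18 receptors, kinases, transcription factors and inhibitors of interferon signalling, 17 were tested. With IFN-γ, 14 of the 17 rose and 1 fell, beside 24.1% and 19.5% of all tested genes, with a median of 1.57. Irf1, the factor that binds ISRE-like elements, rose by 4.76 ± 0.15, and Nlrc5, the activator of MHC class I genes, by 2.95 ± 0.13. At 400 µM heme-albumin 6 fell, 0 rose and 11 were not called, beside 10.8% of all tested genes that fell, with a median of -0.07. Stat2, a factor of type I interferon signalling, changed by -1.51 ± 0.13 and Irf1 by -0.97 ± 0.13. At 200 µM 5 fell and 2 rose, with a median of -0.12; Stat2 changed by -1.85 ± 0.13, and Usp18, an inhibitor of type I interferon signalling, by -3.41 ± 0.37. With IL-4, 6 fell and 2 rose, with a median of -0.19. Socs1, an inhibitor of JAK kinases, rose from 0.727 ± 0.0244 to 34.4 ± 9.36 CPM (5.56 ± 0.46, adjusted p = 2.02e-06), while Irf9 changed by -1.27 ± 0.13 and Stat2 by -1.25 ± 0.13. Between the members and these regulators only the values are set side by side.

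The guanylate-binding proteins (GBPs), larger GTPases that join the IRGs on parasite vacuoles, were counted in the same way. All 11 rose with IFN-γ, beside 24.1% of all tested genes, with a median of 7.97, among them Gbp4 (12.08 ± 0.44), Gbp8 (7.97 ± 0.26) and Gbp3 (6.29 ± 0.24). Gbp2b, Gbp10 and Gbp11 had at most 3 counts in every other group, and Gbp4 had 13 in controls. These genes passed the low-count filter only through the IFN-γ libraries, so their rise follows from how they entered the test. A fall of Gbp2b, Gbp10 or Gbp11 below control could not be seen. At 400 µM, 6 of the 11 fell and 0 rose, beside 10.8% and 14.7% of all tested genes, with a median of -1.09 (-1.16 at the bounds), including Gbp5 (-2.43 ± 0.42) and Gbp7 (-1.22 ± 0.21). At 200 µM, 6 fell and 0 rose, with a median of -1.56 (-1.76 at the bounds), including Gbp3 (-1.96 ± 0.25) and Gbp9 (-1.36 ± 0.21). With IL-4, 6 fell and 0 rose, including Gbp9 (-2.52 ± 0.22) and Gbp5 (-2.33 ± 0.35). The median was -0.97, or -1.51 with Gbp2b, Gbp10 and Gbp11 left out for their low counts. The same genes are left out of the medians at the bounds at both heme-albumin doses.

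The proteins that bring IRGs to a vacuole, which are part of the autophagy machinery and the ubiquitin system, were mostly not called with heme-albumin and IL-4. Of 16 genes tested, 7 rose, 1 fell and 8 were not called with IFN-γ, beside 24.1% and 19.5% of all tested genes that rose and fell. At 400 µM 3 rose, 2 fell and 11 were not called, beside 14.7% and 10.8%. At 200 µM and with IL-4, 3 rose, 1 fell and 12 were not called, beside 14.0% and 9.48% at 200 µM and 14.9% and 12.0% with IL-4, so these counts were near those shares. Sqstm1, the adaptor p62, changed by 2.05 ± 0.26 at 400 µM, 1.92 ± 0.26 at 200 µM and 1.15 ± 0.26 with IFN-γ. Gabarapl1, of the GABARAP subfamily of ATG8 proteins, changed by 1.5 ± 0.21 at 400 µM, 1.36 ± 0.21 at 200 µM and 0.91 ± 0.21 with IL-4. Trim21, a ubiquitin ligase, fell where the members fell and rose with IFN-γ, at -1.02 ± 0.14 at 400 µM, -1.07 ± 0.14 at 200 µM, -1.05 ± 0.14 with IL-4 and 0.93 ± 0.14 with IFN-γ. The median of the 16 stayed between 0.08 and 0.22 in the 4 comparisons.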

How the data were processed

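Gene expression was measured in 15 libraries made with a stranded TruSeq kit, per the labels' protocols. The deposited values are raw counts per gene in 1 table of 25700 identifiers, of which 25664 matched GENCODE M21. The submitters' processing notes name STAR 2.7.0e, SAMtools 1.9, featureCounts and GRCm38.p5. The annotation, the strand setting and the handling of reads with several matches are not given in the sources used here, which leaves overlapping genes and near-identical copies uncertain.

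Counts were filtered with filterByExpr (11883 genes), scaled by TMM (factors 0.886 to 1.12) and fitted with edgeR 4.0.16 in R 4.3.3, with 1 mean per group over all 15 libraries. Benjamini-Hochberg adjusted p-values over all tested genes come from its quasi-likelihood test. CPM uses the TMM-scaled sizes, and lengths are unions of GENCODE M21 exons. The test was also run on simulated counts. Those had no effect of date and no libraries that stand apart, so that run does not cover these features of the data. The members, lists and alternatives were chosen with earlier results of these data known. All members were named. Of each list, up to 3 genes called with the smallest p per comparison were taken, and 5 genes nearest to each class profile, passing over predicted genes. Not every gene so taken is named above for each comparison. A gene that this rule takes is not reported here.

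The replicate numbers pair the libraries through a shared date in the column names, although what a date marks is not given in the sources used here. Deviations of same-numbered libraries from their group means correlated with a median of 0.144 over 30 pairs (-0.168 to 0.474), against -0.0688 over 60 other pairs. Alternatives were DESeq2 1.42.0, other scaling factors, other filters, the replicate block, only the libraries compared, summed counts of overlapping or near-identical members, and leaving out single libraries. No pair of replicates was a copy, since the lowest chi-square per degree of freedom within a group was 7.2. Loop codons and protein identities were computed with Biopython 1.88, and figures drawn with matplotlib 3.10.9.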

Additional observations from a re-analysis of the deposited data

How the results depend on the processing

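The number of the 7 genes that rose or fell was within 1.5 times its reported value in each alternative run for the 4 comparisons with control and for the doses. Between IL-4 and 200 µM, the block took the members lower with IL-4 from 1 to 2, Igtp beside Ifi47. Over 554 recomputed values of members, direction and call were unchanged in 545 and 0 reversed. A call was lost in 3 (Igtp at 400 µM, given above with the libraries left out). A call was gained in 6, of which 3 are Tgtp1 with the replicate block and 3 its sum with Tgtp2. Adjusted p for Igtp at 400 µM ran from 0.00343 to 0.119 over its alternatives. The replicate block gave Tgtp1 changes of -4.38 at 400 µM, -4.23 at 200 µM and -2.88 with IL-4 and Igtp -0.55 between IL-4 and 200 µM; it changed no other member's call. The Tgtp1 calls rest on 6 counts over the controls against 0, 0 and 1 over these groups. Summing Tgtp1 with Tgtp2 gave the 3 other gains, which are calls of the pair and not of Tgtp1 alone. In controls the pair held 6 Tgtp1 and 215 Tgtp2 counts, and Tgtp2 by itself was already called. Other scalings left the median of all tested genes between -0.059 and 0.03. Counts over all genes were less steady. At 200 µM, 1658 rose and 1127 fell; 2152 fell with only the 6 libraries compared, 2511 rose and 2425 fell with the block among those 6, 1003 rose without control 1, and 1029 rose and 650 fell without 200 µM replicate 2. With IL-4, 1766 rose and 1424 fell; 2515 fell with the 6 libraries, and 3303 rose and 3249 fell with the block among them. Between the doses, the block among 6 libraries called 147 genes higher and 97 lower, and 1 gene was lower without both 400 µM replicate 2 and IFN-γ replicate 3. The alternatives with both of these libraries left out, the block among 6 libraries and the sum of Igtp and Irgm2 were chosen after seeing the data. Depth limits Tgtp1 and Iigp1 with heme-albumin and IL-4, where the 3 libraries of a group held at most 10 counts of either gene.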

Other observations

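Tgtp1 took a different share of the counts of the Tgtp pair with IFN-γ and in controls. In controls 1 to 3 it was 3.08, 1.60 and 6.45%, from 2 Tgtp1 counts each, and over the 3 libraries 2.71% (95% exact interval 1.00 to 5.82%). With IFN-γ it was 39.1, 42.7 and 53.4%, and over the 3 libraries 45.4% (45 to 45.9%). The intervals cover counting error only. An exact two-sided permutation test of the 3 shares against 3 gave p = 0.1, the smallest that 20 permutations allow. The 2 annotated proteins are identical and the coding sequences 99.7% identical, with 4 aligned columns that differ, and the part that the assignment of reads has in these shares was not tested.

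Pacsin1, taken as a marker of plasmacytoid dendritic cells, had 78 counts with IFN-γ and 0 in controls, while Siglech of the same list had 2 and 0. Tcf4, also on that list, was at 63.5 to 73.5 CPM in controls, 32.5 to 44.5 at 200 µM, 37.5 to 39.7 at 400 µM, 55.7 to 60.9 with IL-4 and 48.6 to 57.7 with IFN-γ. Its part in the values of the IRG genes was not tested.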
